A study of Mus musculus with 24 samples.

Results

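The mitosis genes described here are 40 genes whose products build the spindle, move and compact the chromosomes, switch cells into and out of mitosis and cut the daughter cells apart. They were chosen by name, and all 40 were present among the 30705 genes of the mRNA tables of mouse ocular lens. The mice were of strain C57BL/6, on embryonic day 15 (E15) or 18 (E18), or on day 0, 3, 6 or 9 after birth (P0, P3, P6, P9). No group carried a mutation, transgene or treatment, so stage was what separated the groups. Each of the 6 stages had 2 pools, A and B, of lenses from 8 to 9 animals apiece, taken out with forceps under a microscope, which gave 12 mRNA libraries. Levels are in RPKM, reads per kilobase of transcript and per 1e6 reads of the library.

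In the lens, cell division takes place in the epithelial sheet that covers the front of the organ, mostly near its equator. Cells that pass the equator leave the cell cycle and elongate into fibers, which later lose their nuclei. Mitosis genes are transcribed mainly in the G2 phase and in mitosis itself, so their transcripts in a tissue follow the presence of dividing cells. Dividing cells also occur in the retina and in the vessels behind the lens around birth.

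Depth, read from the steps between low values, was 20.3 (P9 B) to 43.8 (E18 B) in units of 1e6 reads. For a transcript of 2 kb, a level of 1 RPKM meant 40.7 reads in P9 B and 87.6 reads in E18 B. All 40 mitosis genes reached 1 RPKM in each library through P6 A, 39 did in P6 B, 33 in P9 A and 31 in P9 B. The lowest value was that of Ccnb1 in P9 B, 0.391 RPKM, about 15.9 reads at a length of 2 kb. The E15 pools stood apart from each other, with a median absolute log2 difference over all tested genes of 0.35, against 0.115 to 0.153 at the other stages. Lens fiber markers were present throughout, with the water channel gene Mip at 1441 to 3870 RPKM.

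Transcripts of the mitosis genes were most abundant before birth, dropped steeply between E18 and P0, stood somewhat higher at P3, and declined to their lowest levels at P9. Summed over the 40 genes, the level was 1483 and 815 RPKM in the E15 pools (A, then B) and 1007 and 980 at E18. After birth the P0 pools summed to 262 and 269 RPKM, the P3 pools to 318 and 432, the P6 pools to 171 and 149, and the P9 pools to 103 and 89.4. The 4 embryonic libraries lay above the 8 postnatal ones for this sum and for each of the 40 genes, a pattern that 37.0% of all tested genes showed. As a share of the summed RPKM of a library, the 40 genes went from 0.338% in E15 A to 0.0144% in P9 B. In these bulk samples, fewer dividing cells, less RNA of these genes per cell and more RNA from other cells cannot be told apart. The dividing cells may be of the lens or of tissue carried with it.

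All 40 mitosis genes fell between E18 and P0, and all 40 were lower at P9 than at E18 (limma across all genes, Benjamini-Hochberg adjusted p under 0.05). Of the 14405 genes tested, 45.1% were called lower and 7.72% higher at P0 than at E18, and 63.2% were called lower and 7.49% higher at P9 than at E18. The sizes of change are therefore set beside those of all genes. The median change of the mitosis genes on the log2(RPKM + 1) scale was -1.75 from E18 to P0, where that of all tested genes was -0.41, and -2.84 from E18 to P9, against -0.61. As a level relative to E18, the median mitosis gene stood at 26.1% on P0, then at 37.3% on P3, 16.2% on P6 and 8.63% on P9. The median of the 13824 genes with at least 1 RPKM at E18 was 69.9%, 71.5%, 59.6% and 58.3% at the same stages. Tested over all 6 stages jointly, 40 of 40 mitosis genes changed, as did 74.2% of all tested genes.

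**Figure D1:**
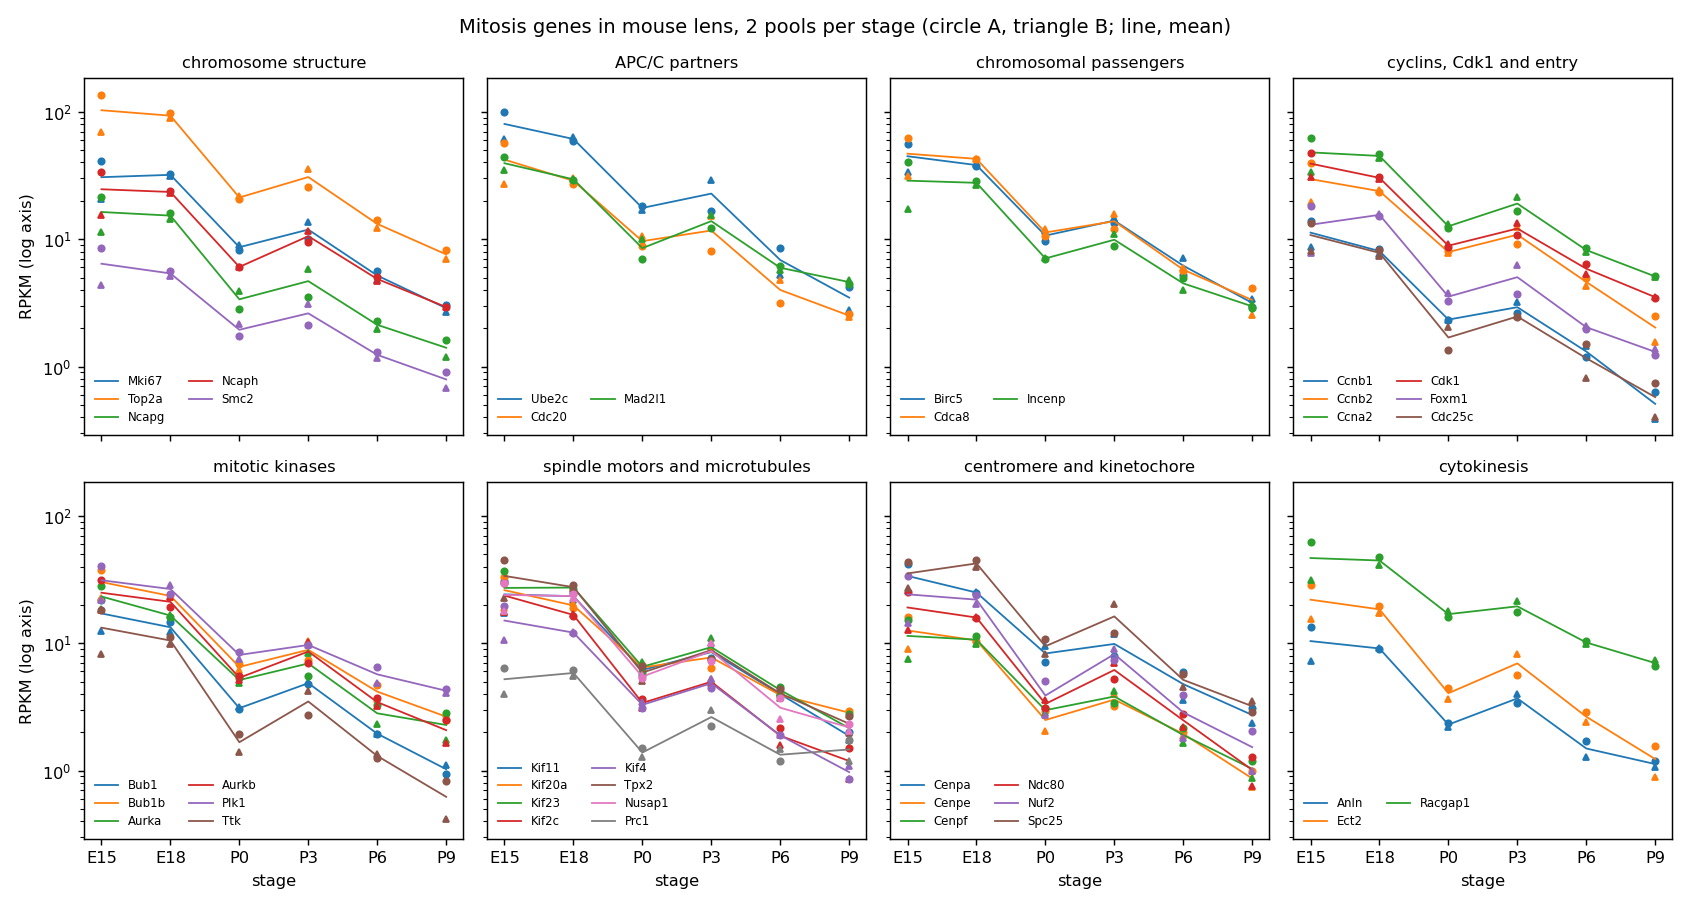
Level of each of the 40 mitosis genes in RPKM (log axis) against stage, in 8 panels by role, with circles for pool A, triangles for pool B and lines through the stage means. Every gene lies higher in the embryonic stages than after birth, and most reach their lowest level at P9, where Prc1 stands at 25.1% of its E18 mean and Ube2c at 5.69%.

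The switch into mitosis is thrown by the kinase Cdk1 together with B-type cyclins. Cdk1 (chromosome 10, 69335146-69352912, GRCm38) measured 47.8 and 30.6 RPKM in the E15 pools, 30.9 and 29.7 at E18, 8.61 and 9.18 at P0, 10.7 and 13.5 at P3, 6.36 and 5.38 at P6, and 3.46 and 3.55 at P9. Its postnatal pools were all below the embryonic ones, and the P3 pools were the highest after birth. The fall from E18 to P0 was -1.66 ± 0.19 on the log2 scale (SE; adjusted p = 0.000693). Ccnb1 (chromosome 13, 100778739-100786486), which encodes cyclin B1, measured 13.9 and 8.64 RPKM at E15, 8.43 and 7.70 at E18, 2.34 and 2.34 at P0, 2.62 and 3.23 at P3, 1.19 and 1.44 at P6, and 0.629 and 0.391 at P9. It was among the few genes whose E15 pools both lay above both E18 pools, and no later stage overlapped with E18. At P0 it was lower than at E18 by -1.44 ± 0.21 (adjusted p = 0.00111), among the 3 smallest changes on this scale, on which a pseudocount of 1 compresses low levels.

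The other cyclins and entry regulators followed the same order of stages. Ccnb2, for cyclin B2, stood at 23.8 ± 0.477 RPKM at E18 (mean ± SD, n = 2 pools here and below), 7.92 ± 0.245 at P0 and 2.03 ± 0.663 at P9. Ccna2, for cyclin A2, which acts from S phase onward, went from 45.0 ± 2.15 to 12.6 ± 0.624 and 5.10 ± 0.0559 RPKM. Cdc25c, for a phosphatase that activates Cdk1, stood at 7.81 ± 0.515, 1.69 ± 0.481 and 0.576 ± 0.243 RPKM at these stages. Foxm1, for a transcription factor of genes used in G2 and mitosis, measured 15.5 ± 0.284, 3.54 ± 0.366 and 1.30 ± 0.0933 RPKM. All 6 genes of this group fell from E18 to P0, with a median of -1.69, and 4 of 6 fell from P0 to P9. Cdc25c and Foxm1 were the pair that did not pass there, with P0 and P9 means as given.

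Many genes of this kind carry a CHR element, a hexamer bound by complexes of the MuvB core, close to the transcription start, with CCAAT boxes bound by NF-Y upstream. Promoter windows of 300 bases, 250 before and 50 after the annotated start, were available for 33 of the 40 genes from RefSeq (GRCm38.p6). Those of the Cdk1 gene, its B-type cyclin genes and Plk1 are shown because they encode the core of the entry switch. The windows are chr10:69352863-69353162 on the minus strand for Cdk1, chr13:100786437-100786736 on the minus strand for Ccnb1, chr9:70421505-70421804 on the minus strand for Ccnb2 and chr7:122159185-122159484 on the plus strand for Plk1. Capitals mark CHR hexamers (TTTGAA) and CCAAT boxes (CCAAT, or ATTGG when read on the other strand), and each window runs 5′ to 3′ in the direction of the gene.
Cdk1: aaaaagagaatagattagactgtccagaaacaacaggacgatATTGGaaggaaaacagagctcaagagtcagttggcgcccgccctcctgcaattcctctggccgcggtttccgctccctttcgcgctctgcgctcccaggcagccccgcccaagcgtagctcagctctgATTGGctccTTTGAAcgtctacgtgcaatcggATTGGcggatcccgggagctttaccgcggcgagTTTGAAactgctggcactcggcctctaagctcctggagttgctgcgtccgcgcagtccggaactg
Ccnb1: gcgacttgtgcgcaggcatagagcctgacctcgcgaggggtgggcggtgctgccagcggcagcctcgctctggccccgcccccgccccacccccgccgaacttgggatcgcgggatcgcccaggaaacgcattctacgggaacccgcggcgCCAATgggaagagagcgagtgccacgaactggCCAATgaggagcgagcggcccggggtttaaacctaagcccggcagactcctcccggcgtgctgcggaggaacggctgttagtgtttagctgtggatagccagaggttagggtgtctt
Ccnb2: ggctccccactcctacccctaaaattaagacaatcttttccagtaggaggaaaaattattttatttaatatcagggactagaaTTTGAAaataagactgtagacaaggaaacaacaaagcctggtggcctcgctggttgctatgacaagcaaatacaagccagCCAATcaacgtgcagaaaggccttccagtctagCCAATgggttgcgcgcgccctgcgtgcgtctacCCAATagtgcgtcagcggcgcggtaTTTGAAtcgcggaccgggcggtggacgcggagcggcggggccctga
Plk1: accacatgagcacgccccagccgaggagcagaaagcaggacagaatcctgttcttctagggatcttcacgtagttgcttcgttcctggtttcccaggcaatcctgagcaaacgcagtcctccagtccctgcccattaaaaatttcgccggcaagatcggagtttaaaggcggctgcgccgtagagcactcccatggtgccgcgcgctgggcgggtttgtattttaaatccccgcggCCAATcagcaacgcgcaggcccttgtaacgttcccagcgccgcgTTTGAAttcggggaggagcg

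Counted from the start, with negative positions upstream, Cdk1 held CHR hexamers at -71 and -15 and CCAAT boxes at -208, -80 and -48. Ccnb2 held hexamers at -167 and 5 with boxes at -87, -54 and -21, and Plk1 a hexamer at 31 with a box at -14. The Ccnb1 window held boxes at -99 and -67 and neither hexamer searched for. Over the mitosis genes, a CHR hexamer (TTTGAA or TTCGAA, either strand) was in 26 of 33 windows, 78.8%, against 15.9% of the 9411 tested genes with a window. A CCAAT box, on either strand, was in 25 of 33 (75.8%), against 43.5%, and at least 2 boxes were in 16 of 33 (48.5%), against 17.0%. Both motifs occurred in 23 of 33 (69.7%), against 6.78%. An E2F site (TTTGGCGC, TTTCGCGC, TTTCCCGC or TTTGCCGC, either strand), the motif of genes of DNA replication, was in 2 of 33 (6.06%), against 4.71%. Matches of different motifs may share end bases, and a match describes letters in a window, not binding.

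**Figure D2:**
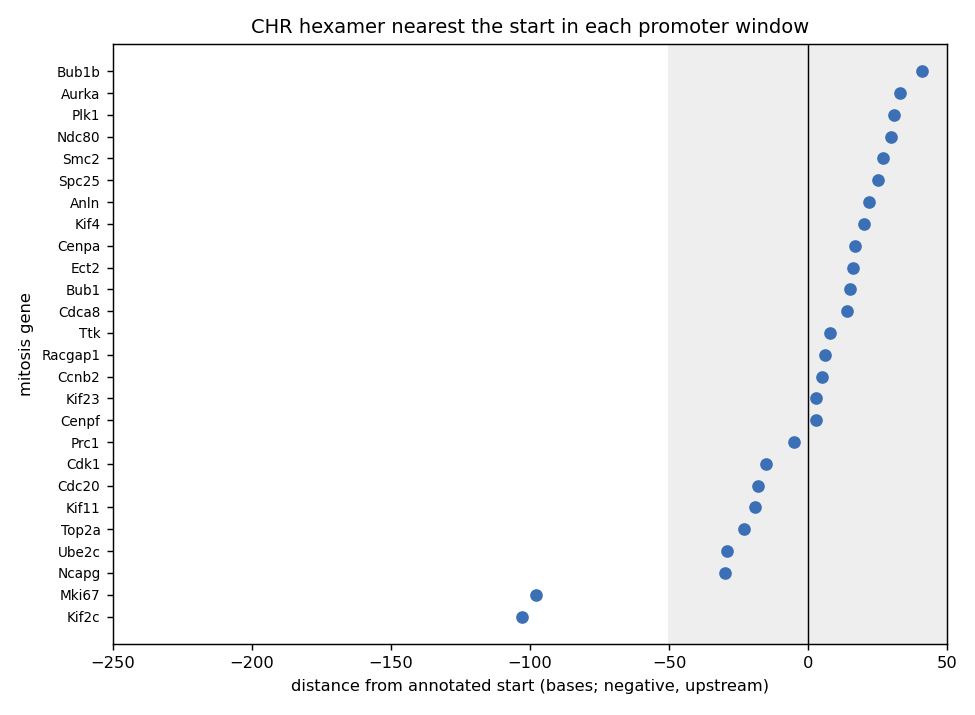
Distance in bases from the annotated start to the first base of the nearest CHR hexamer, for the 26 mitosis genes with a hexamer in the promoter window (negative, upstream; shading, within 50 bases of the start). For 24 genes the hexamer lies within 50 bases of the start, and for Mki67 and Kif2c it lies farther upstream, at -98 and -103.

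The hexamers clustered at the start. Within 50 bases of it, 24 of 33 mitosis genes (72.7%) had one, against 401 of 9411 tested genes (4.26%), a distance chosen after the positions had been seen. Birc5, Ccnb1, Cenpe, Mad2l1, Ncaph, Nuf2 and Nusap1 had neither TTTGAA nor TTCGAA in the window, and no other form of the CHR was searched for. These genes fell at birth like the others: Mad2l1 went from 29.5 ± 0.637 to 8.51 ± 2.09 RPKM between E18 and P0, and Nusap1 from 23.5 ± 1.21 to 5.47 ± 0.189.

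Among the mitotic kinases, Plk1 (chromosome 7, 122159435-122169884), which acts on centrosomes, kinetochores and the cleavage plane, measured 40.7 and 21.7 RPKM in the E15 pools, 24.4 and 28.8 at E18, 8.61 and 7.58 at P0, 9.68 and 9.70 at P3, 6.51 and 4.89 at P6, and 4.41 and 4.07 at P9. It lay below the E18 pools at each postnatal stage, but its P9 level, 15.9% of E18, was the highest after that of Prc1. The change from P0 to P9 was -0.80 ± 0.24 and did not pass (adjusted p = 0.0575). Ttk, for the checkpoint kinase that starts the alarm at unattached kinetochores, went at birth from 10.5 ± 0.947 to 1.67 ± 0.376 RPKM. On the log2(RPKM + 1) scale this was the second steepest drop among the 40, -2.11 ± 0.31 (adjusted p = 0.00114). As a share of the E18 mean, its P0 level of 15.9% was the lowest of the 40. Aurka, whose kinase works at spindle poles, went from 16.5 ± 0.411 RPKM at E18 to 5.14 ± 0.316 at P0 and 2.28 ± 0.748 at P9. Bub1 and Bub1b, for checkpoint kinases of the kinetochore, stood at 7.69% and 11.3% of their E18 means at P9. All 6 kinases fell from E18 to P0 (median -1.75).

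The kinase Aurkb works in the chromosomal passenger complex, which corrects faulty attachments and then marks the cleavage plane. Aurkb measured 21.1 ± 2.62 RPKM at E18, 5.36 ± 0.293 at P0 and 2.08 ± 0.601 at P9. Its partner genes Birc5 (survivin), Cdca8 (borealin) and Incenp (the scaffold) measured 38.2 ± 0.616, 42.7 ± 0.327 and 27.7 ± 1.25 RPKM at E18. At P9 they stood at 3.16 ± 0.304, 3.33 ± 1.13 and 2.97 ± 0.161 RPKM, so these 3 genes ended at nearly the same level. Birc5 was among the 5 genes that also passed from P3 to P6, at -1.07 ± 0.21 (adjusted p = 0.047).

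Exit from mitosis runs through the anaphase promoting complex (APC/C), a ubiquitin ligase. Its mitotic activator gene Cdc20 (chromosome 4, 118432901-118437343) measured 57.2 and 27.0 RPKM in the E15 pools, 27.1 and 30.3 at E18, 8.80 and 10.5 at P0, 8.06 and 15.3 at P3, 3.17 and 4.82 at P6, and 2.58 and 2.45 at P9. The P3 pools straddled those of P0, and the P3 B value was 1.9 times that of P3 A, the widest ratio of these pools among the 40 genes. Ube2c, for the ubiquitin-conjugating enzyme that serves the complex, measured 98.9 and 61.6 RPKM at E15, 59.2 and 63.0 at E18, 18.3 and 16.9 at P0, 16.6 and 29.0 at P3, 8.53 and 5.21 at P6, and 4.20 and 2.76 at P9. It had the largest change of the 40 from E18 to P9, -3.81 ± 0.30 (adjusted p = 1.93e-05), and from P0 to P9, -2.07 ± 0.30 (adjusted p = 0.00343). Mad2l1, whose product Mad2 holds Cdc20 back until all chromosomes are attached, ended at 15.6% of its E18 level.

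At the kinetochore, the Ndc80 complex grips the microtubule ends. Its gene Nuf2 went from 23.8 and 20.1 RPKM at E18 to 5.04 and 2.72 at P0. This was the steepest drop at birth on the log2(RPKM + 1) scale, a change of -2.27 ± 0.40 (adjusted p = 0.00223). As a share of the E18 mean, its P0 level was 17.7%, above the 15.9% of Ttk. At P6 Nuf2 measured 3.92 and 1.80 RPKM, and the pools of P0 and P6 overlapped. Spc25, of the same complex, measured 44.9 and 39.7 RPKM at E18, 10.8 and 8.17 at P0, 11.96 and 20.5 at P3, 5.76 and 4.55 at P6, and 2.88 and 3.53 at P9. Its change from E18 to P9, -3.37 ± 0.26 (adjusted p = 1.93e-05), was the third largest of the 40 on the log2(RPKM + 1) scale. As a share of the E18 mean it stood at 7.58% at P9, above genes of lower level such as Ttk (5.93%) and Ccnb1 (6.32%). Ndc80 itself went from 15.9 ± 0.119 RPKM at E18 to 1.01 ± 0.362 at P9. Cenpa, the histone that marks centromeres, stood at 25.0 ± 0.455, 8.31 ± 1.69 and 2.73 ± 0.547 RPKM at E18, P0 and P9, and the kinetochore genes Cenpe and Cenpf at 0.868 ± 0.171 and 1.03 ± 0.219 RPKM at P9.

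The spindle group holds the most uneven member. Prc1, which bundles antiparallel microtubules at the spindle midzone, measured 6.41 and 4.03 RPKM in the E15 pools, 6.20 and 5.49 at E18, 1.50 and 1.28 at P0, 2.25 and 3.01 at P3, 1.20 and 1.47 at P6, and 1.74 and 1.19 at P9. It fell at birth like the rest, by -1.52 ± 0.21 (adjusted p = 0.00108), but P0, P6 and P9 then overlapped. Its change from P0 to P9 was 0.04 ± 0.21 (adjusted p = 0.913), and its change from E18 to P9, -1.48 ± 0.21 (adjusted p = 0.0003), was the smallest of the 40. An exon of Prc1 overlaps Rccd1 on the opposite strand, which measured 4.62 RPKM at E18 and 2.27 at P9, and the sources used here do not say whether counting used strand. Kif11, the motor that pushes the spindle poles apart, went from 23.4 ± 2.11 RPKM at E18 to 6.17 ± 0.767 at P0 and 1.87 ± 0.186 at P9. Tpx2, an activator of Aurora A, went from 27.5 ± 1.44 to 5.88 ± 1.12 and 2.33 ± 0.484 RPKM. Nusap1, a microtubule binder of the spindle, went from 8.68 ± 1.94 RPKM at P3 to 3.12 ± 0.826 at P6, a called fall of -1.23 ± 0.23 (adjusted p = 0.038). The motor genes Kif2c, Kif4, Kif20a and Kif23 stood at 7.13%, 8.04%, 14.4% and 7.88% of their E18 levels at P9.

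In cytokinesis, Racgap1 pairs with the Kif23 motor in the centralspindlin complex, which recruits Ect2, and anillin (Anln) holds the ring. Racgap1 measured 47.7 and 41.4 RPKM at E18, 15.9 and 17.9 at P0, 17.7 and 21.3 at P3, 10.3 and 9.94 at P6, and 6.60 and 7.37 at P9. With -1.35 ± 0.24 (adjusted p = 0.00256) it had the second smallest drop at birth on the log2(RPKM + 1) scale. As a share of the E18 mean, its P0 level of 37.9% was the highest of the 40. The ratio of Racgap1 to Kif23 RPKM was 1.47 to 1.80 in the embryonic libraries and 1.92 to 4.84 after birth, with no overlap (a ratio chosen after its values had been seen, and not tested). Anln changed by -2.25 ± 0.23 from E18 to P9 (adjusted p = 5.89e-05), from 9.09 ± 0.0926 to 1.13 ± 0.0834 RPKM. Ect2 went from 18.4 ± 1.59 to 1.23 ± 0.472 RPKM.

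Of the genes of chromosome structure, Top2a (chromosome 11, 98992947-99024199), for the topoisomerase that untangles sister DNA, was the most abundant of the 40 in 11 of the 12 libraries, all but P9 B, where Racgap1 was higher. It measured 136 and 69.3 RPKM in the E15 pools, 97.4 and 88.9 at E18, 20.8 and 21.7 at P0, 25.7 and 35.7 at P3, 14.2 and 12.2 at P6, and 8.21 and 6.99 at P9. No pool of one postnatal stage overlapped with those of another, and all lay below the embryonic pools. From E18 the change was -2.08 ± 0.26 to P0 (adjusted p = 0.000805) and -3.46 ± 0.26 to P9 (adjusted p = 1.65e-05). Its ubiquitous relative Top2b, which is not a mitosis gene, went from 52.0 RPKM at E18 to 32.7 at P9, a change of -0.65 ± 0.12 (adjusted p = 0.000864). The Top2a to Top2b ratio, which library scaling cannot move, was 1.30 to 2.23 in the embryonic libraries, 0.494 to 0.954 at P0 and P3, and 0.209 to 0.399 at P6 and P9.

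Mki67 (chromosome 7, 135689784-135716450), whose product coats mitotic chromosomes and serves as a common marker of proliferation, measured 40.8 and 20.6 RPKM in the E15 pools, 32.6 and 31.4 at E18, 8.27 and 9.03 at P0, 10.1 and 13.7 at P3, 5.58 and 4.79 at P6, and 3.07 and 2.68 at P9. The E18 pools lay between the E15 pools, and every postnatal stage was clear of the others. The condensin genes differed in size of change. Smc2, the core subunit, went at birth from 5.39 ± 0.363 to 1.95 ± 0.284 RPKM. This was the smallest drop on the log2(RPKM + 1) scale, -1.12 ± 0.25 (adjusted p = 0.00564), though its P0 level, 36.1% of E18, was below the 37.9% of Racgap1. To P9, Smc2 changed by -1.83 ± 0.25 (adjusted p = 0.000229). Ncapg and Ncaph, for other condensin subunits, stood at 9.18% and 12.5% of their E18 means at P9, against 14.7% for Smc2.

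In the order of stage means, Top2a led at both ends of the decline. At E18 the highest was Top2a with 93.2 ± 6.07 RPKM, followed by Ube2c with 61.1 ± 2.72, and then Ccna2 (45.0 ± 2.15) and Racgap1 (44.6 ± 4.42), which did not differ beyond their spread. At P9 the highest were Top2a with 7.60 ± 0.859 RPKM and Racgap1 with 6.99 ± 0.542, also within their spread. The lowest were Smc2 (5.39 ± 0.363) and Prc1 (5.84 ± 0.503) at E18, and Ccnb1 (0.510 ± 0.168) and Cdc25c (0.576 ± 0.243) at P9.

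Between E15 and E18 no mitosis gene passed in either direction, where 3.67% of all tested genes were called lower and 5.48% higher. At an unadjusted p under 0.05 the count was 1, and no share of all tested genes was counted at that threshold. The median change was -0.18, from -0.44 (Cdc20) to 0.35 (Foxm1). The E15 pools bracketed the comparison: for all 40 genes pool A of E15 exceeded pool B, by 1.25 times (Mad2l1) to 2.36 times (Foxm1), and the E18 pools lay between the E15 pools for 29 of them. Of all tested genes, 71.8% were higher in E15 A. Without E15 B, the median change of the mitosis genes was -0.57, against -0.07 for all tested genes. Without E15 A, it was 0.28, against 0.18. Ccnb1, Aurka, Kif2c, Cenpa and Mad2l1 had both E15 pools above both E18 pools, a pattern that 21.9% of all tested genes showed.

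Markers of retinal progenitors moved with the E15 pools. The 7 markers, all higher in pool A, summed to 841 RPKM there and to 222 RPKM in pool B. Rax, a transcription factor of the eye field and retina, measured 75.6 and 20.2 RPKM. The 8 lens fiber markers were all lower in A, with sums of 4101 and 7919 RPKM. The part of retinal tissue in the difference between the E15 pools was not tested.

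The drop at birth was the largest step of the course. In each of the 40 genes both E18 pools lay above both P0 pools, as they did for 68.6% of all tested genes, and the adjusted p ranged from 0.000491 (Mad2l1) to 0.00595 (Cdc20). By role, the medians ran from -1.61 for cytokinesis and -1.69 for cyclins and entry to -1.84 for spindle motors and -1.85 for kinetochore genes, with ranges that overlapped. Median-ratio rescaling of the libraries moved the median of all tested genes from -0.41 to 0. On that scale 40 of 40 mitosis genes were still called lower, with a median of -1.29, against 16.6% of all tested genes called lower and 18.5% higher. Retinal progenitor markers fell in the same step, 7 of 7 on the deposited scale, where 45.1% of all tested genes did, and 5 of 7 after rescaling. Their deposited sums went from 524 and 500 RPKM at E18 to 81.3 and 74.6 at P0, with Rax at 56.2 and 61.5 and then 11.7 and 9.42. With Rax as a covariate in the model, none of the 40 was called at P0 against E18 (median -0.93; adjusted p = 0.0932 to 0.718; all tested genes 0.125% lower). The Rax levels of these stages do not overlap, and the median standard error of the mitosis genes was 0.32 with the covariate in place of 0.25.

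**Figure D3:**
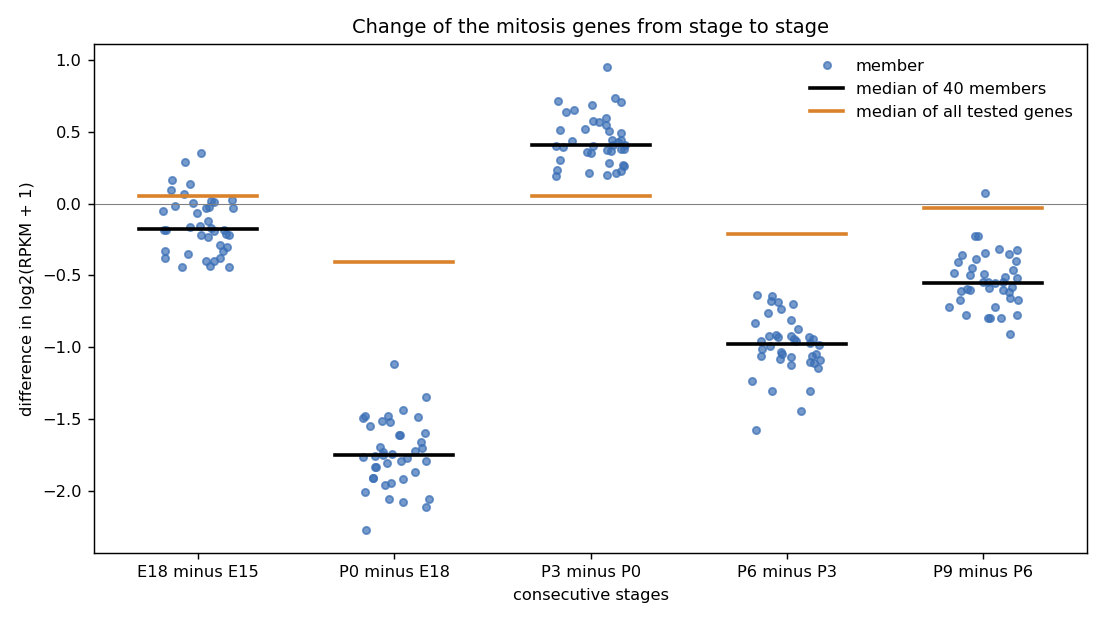
Difference in log2(RPKM + 1) between consecutive stages for the 40 mitosis genes (points, spread sideways for visibility), with their median (black) and the median of all tested genes (orange). The medians are -0.18, -1.75, 0.41, -0.98 and -0.55 from left to right. Neighbouring columns share the libraries of the stage between them.

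At P3 all 40 mitosis genes had a higher mean than at P0, and none passed. The median difference was 0.41, from 0.19 (Racgap1) to 0.95 (Nuf2), against 0.05 for all tested genes. Of the latter 0.354% were called higher and 0.167% lower after adjustment. An unadjusted p under 0.05 was seen for 12 of the 40, a threshold at which no share of all tested genes was counted. Both P3 pools lay above both P0 pools for 31 genes, against 30.1% of all tested genes. The exceptions were Ube2c, Cdc20, Kif20a, Cenpa, Cdca8, Foxm1, Ncapg, Smc2 and Racgap1. When the E15 libraries were left out of the model, Ccna2 (0.55 ± 0.12; adjusted p = 0.0473) and Ncaph (0.71 ± 0.11; adjusted p = 0.0149) were called higher at P3, where 1.42% of all genes were. All 40 genes were higher in P3 B than in P3 A, by a median of 1.33 times, while 42.4% of all tested genes were higher in A. The retinal progenitor markers were also higher in P3 B, 7 of 7 (69.0 RPKM in A and 96.5 in B), and their part in this difference was not tested. Some markers of other cells were also called higher at P3 than at P0. Erythroid markers were higher in 3 of 6 cases, from sums of 66.2 and 153.3 RPKM to 718.8 and 595.4, and mesenchymal markers in 2 of 6, from 17.8 and 16.5 RPKM to 57.6 and 26.1. Macrophage markers had a median difference of 0.62, with none called, and sums of 17.8 and 36.4 RPKM at P0 and 50.6 and 46.1 at P3. The part of these cells in the P3 levels was not tested.

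From P3 to P6 the pools of all 40 genes separated, both P3 pools lying above both P6 pools, against 58.6% of all tested genes. In the model, 5 genes passed: Birc5, Mad2l1, Nusap1, Spc25 and Ube2c, where 0.861% of all tested genes were called lower. The median change was -0.98, from -1.58 (Ube2c) to -0.63 (Prc1), against -0.21 for all genes. All 40 had an unadjusted p under 0.05, a threshold at which no share of all tested genes was counted. The count of 5 after adjustment depended on the libraries in the model. Without either E15 pool, or without both, all 40 were called lower (adjusted p = 0.000924 to 0.0386 without both; 14.2% of all genes). Without P3 B, P6 A or P6 B none was called, and without any other single library 1 was. With Rax as a covariate none was called. Macrophage markers fell in this step as well, 6 of 7, from sums of 50.6 and 46.1 RPKM at P3 to 11.0 and 5.02 at P6, and their part was not tested.

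The decline went on to P9. Both P6 pools lay above both P9 pools for 37 genes, against 25.7% of all tested genes, the exceptions being Aurka, Nuf2 and Prc1. No gene passed for this step alone, where 0.0347% of all tested genes were called lower and 0.0764% higher (median -0.55). An unadjusted p under 0.05 was seen for 18 of 40, with no share of all tested genes counted at that threshold. Over the longer interval from P0 to P9, 29 of 40 fell and none rose, against 9.0% lower and 2.65% higher of all tested genes, with a median of -1.04 against -0.20. The 11 that did not pass were Anln, Cdc25c, Foxm1, Incenp, Ncapg, Ncaph, Nuf2, Plk1, Prc1, Smc2 and Ttk. Of the retinal progenitor markers 2 of 7 were called lower over this interval, with a median of -0.98 and sums of 81.3 and 74.6 RPKM at P0 and 33.5 and 51.8 at P9. Endothelial markers were lower in 6 of 7 cases (median -1.07), from sums of 30.9 and 42.2 RPKM to 13.8 and 17.3, and macrophage markers in 4 of 7 (median -1.32), from 17.8 and 36.4 RPKM to 4.98 and 9.05. The part of these cells in the decline was not tested. Rax stood at 11.7 and 9.42 RPKM at P0 and 7.48 and 11.8 at P9, and a model with Rax as a covariate called 37 of the 40 mitosis genes lower (21.1% of all genes). The count fell to 7 without P0 A, 2 without P0 B, 10 without P9 A and 3 without P9 B. It rose to 39 without the E15 libraries (24.5% of all genes), where only Prc1 did not pass.

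From E18 to P9, 40 of 40 were called lower on each scale tried, with medians of -2.84 as deposited, -2.22 after median-ratio rescaling (20.2% of all genes lower) and -2.27 after quantile normalization (21.7%). The comparison of P9 with E15 shares the P9 libraries, and there too 40 of 40 were lower, against 55.4% lower and 8.65% higher of all tested genes (median -3.01).

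Other genes of the division cycle were taken from lists. Of 62 other mitosis genes measured, 58 fell from E18 to P0 and 59 were lower at P9 than at E18, with medians of -1.43 and -2.15. Of all tested genes, 45.1% and 63.2% were called lower in these comparisons. The strongest were Arhgap11a, which acts in cytokinesis (24.2 RPKM at E18 and 0.926 at P9; -3.69 ± 0.38; adjusted p = 6.21e-05), and Cdca3, which promotes mitotic entry (39.8 and 3.44 RPKM; -3.20 ± 0.28; adjusted p = 3.07e-05). After median-ratio rescaling 53 were lower and 3 higher at P9, against 20.2% lower and 22.3% higher of all tested genes. On the deposited scale a single gene of this list rose, Zwilch, of the kinetochore complex that recruits dynein. It measured 13.3 and 12.3 RPKM at E18, 13.1 and 13.2 at P0, 18.7 and 20.4 at P3, 25.3 and 27.6 at P6, and 34.7 and 30.8 at P9, a rise of 1.29 ± 0.18 from E18 to P9 (adjusted p = 0.000279). Spag5, for the spindle protein astrin, measured 48.4 and 52.0 RPKM at E18 and 52.8 and 49.1 at P9 and did not pass, nor did Pttg1 (securin), at 11.1 and 10.8 and then 8.87 and 8.99 RPKM. These 3 genes were singled out after their values had been seen.

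**Figure D4:**
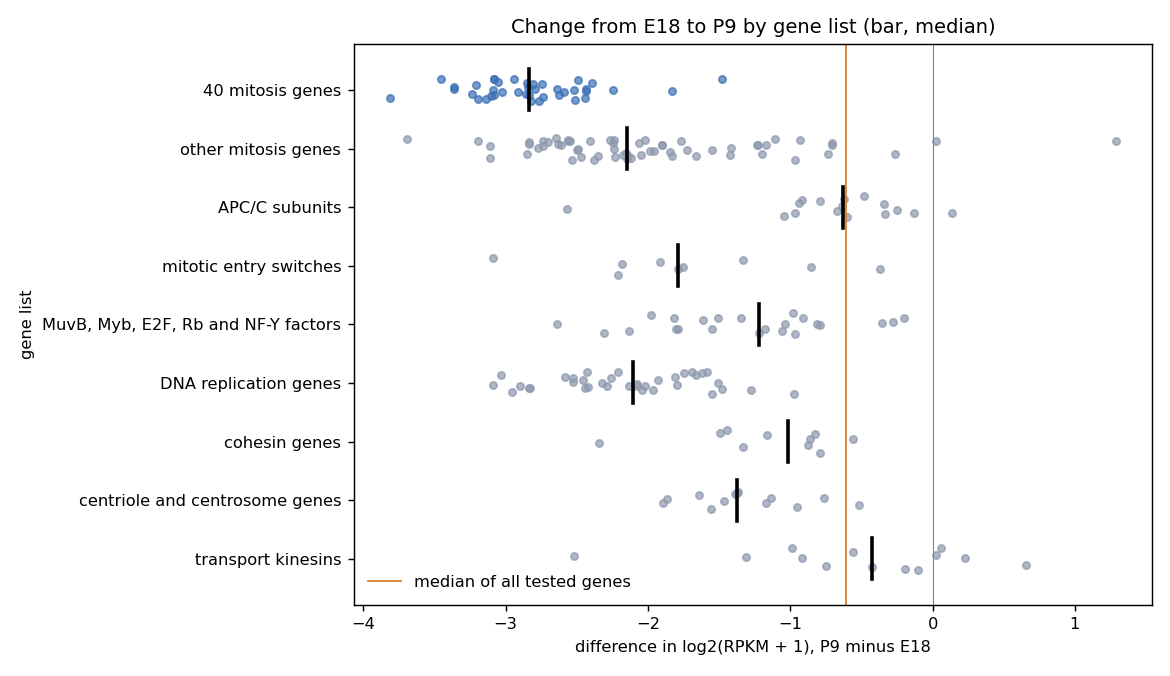
Difference in log2(RPKM + 1) between P9 and E18 for each tested gene of the mitosis genes and of 8 other lists (points), with list medians (black bars) and the median of all tested genes (orange line). The mitosis genes lie farthest left, with a median of -2.84. The list of other mitosis genes follows at -2.15 and the DNA replication genes at -2.11. The APC/C subunits lie near the median of all genes.

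Genes of DNA replication, which act in the preceding S phase, fell from E18 to P0 in 36 of 36 cases (median -1.61), and 36 of 36 were lower at P9 (median -2.11). Of all tested genes, 45.1% were called lower at P0 and 63.2% at P9. After median-ratio rescaling 35 of 36 were lower at P0 and 36 of 36 at P9, against 16.6% and 20.2% of all tested genes. Mcm3 and Mcm5, of the helicase that opens DNA at origins, led with -3.09 ± 0.28 and -3.04 ± 0.26 at P9. In the geometric mean over each list, the mitosis genes stood at 1.02 to 1.12 times the replication genes in the embryonic libraries, 0.948 to 1.02 times at P0 and P3, 0.728 and 0.776 times at P6, and 0.552 and 0.627 times at P9. This ratio was computed after its values had been seen and was not tested.

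Genes of the APC/C itself changed by about as much as the median gene. Of 16 APC/C subunits and partners, 9 fell from E18 to P0 and 12 were lower at P9 (median -0.63, against -0.61 for all genes). Of all tested genes, 45.1% and 63.2% were called lower in these comparisons. After median-ratio rescaling 1 was lower and 4 were higher at P9, against 20.2% and 22.3% of all tested genes. A direction for this list therefore depends on the scaling. The strongest fall in it was of Fbxo5, an inhibitor of the complex made in S phase and G2 (16.9 RPKM at E18 and 2.02 at P9; -2.57 ± 0.27; adjusted p = 6.01e-05). Fzr1, for Cdh1, the activator that takes over from Cdc20 after mitosis and in resting cells, went from 27.2 to 12.7 RPKM (-1.05 ± 0.18; adjusted p = 0.000749). The Cdc20 to Fzr1 ratio was 0.952 to 1.34 in the embryonic libraries and 0.195 and 0.203 at P9, again chosen after its values had been seen.

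Regulators of the entry switch were lower at P9 than at E18 in 9 of 9 cases, and in 7 of 9 after median-ratio rescaling. Of all tested genes, 63.2% were called lower in this comparison as deposited and 20.2% after rescaling. The entry regulators were led by Cdc25b, a phosphatase for Cdk1 (-3.09 ± 0.36, adjusted p = 9.83e-05), and Cks2, a Cdk-binding subunit (-2.21 ± 0.20, adjusted p = 3.33e-05). Of 23 genes of the MuvB, Myb, E2F, Rb and NF-Y factors, 20 were lower at P9 and none higher, led by the repressors E2f8 (7.87 RPKM at E18 and 0.432 at P9) and E2f7. After rescaling 14 were lower and 1 was higher. Mybl2, for the B-Myb subunit that joins MuvB in dividing cells, measured 4.38 and 3.80 RPKM at E18 and 0.294 and 0.636 at P9, whereas Rbbp4, a MuvB subunit shared with chromatin complexes, measured 112.5 and 106.9 and then 103.9 and 87.6 RPKM.

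Genes that hold sisters together and build centrioles are read against the 63.2% of all tested genes called lower at P9 than at E18, and the 20.2% after median-ratio rescaling. All 10 cohesin genes were lower at P9 (median -1.02), Esco2, which acetylates cohesin in S phase, by the most (-2.35 ± 0.22; adjusted p = 3.66e-05), and Rad21, a ring subunit, next (-1.49 ± 0.16; adjusted p = 7.74e-05). After rescaling 5 of 10 were lower. All 13 centriole and centrosome genes were lower (median -1.38; 11 after rescaling), including Plk4, the kinase that starts centriole duplication (5.39 and 0.714 RPKM), and Cep192 (6.37 and 1.02 RPKM). Kinesins that carry cargo rather than chromosomes gave 7 lower and 1 higher of 13, and 2 lower and 5 higher after rescaling, so their direction depends on the scaling. Of these, Kif5a, a motor of neurons, changed most (-2.52 ± 0.48; adjusted p = 0.00126), followed by Kif13b (-1.31 ± 0.22; adjusted p = 0.000656).

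**Figure D5:**
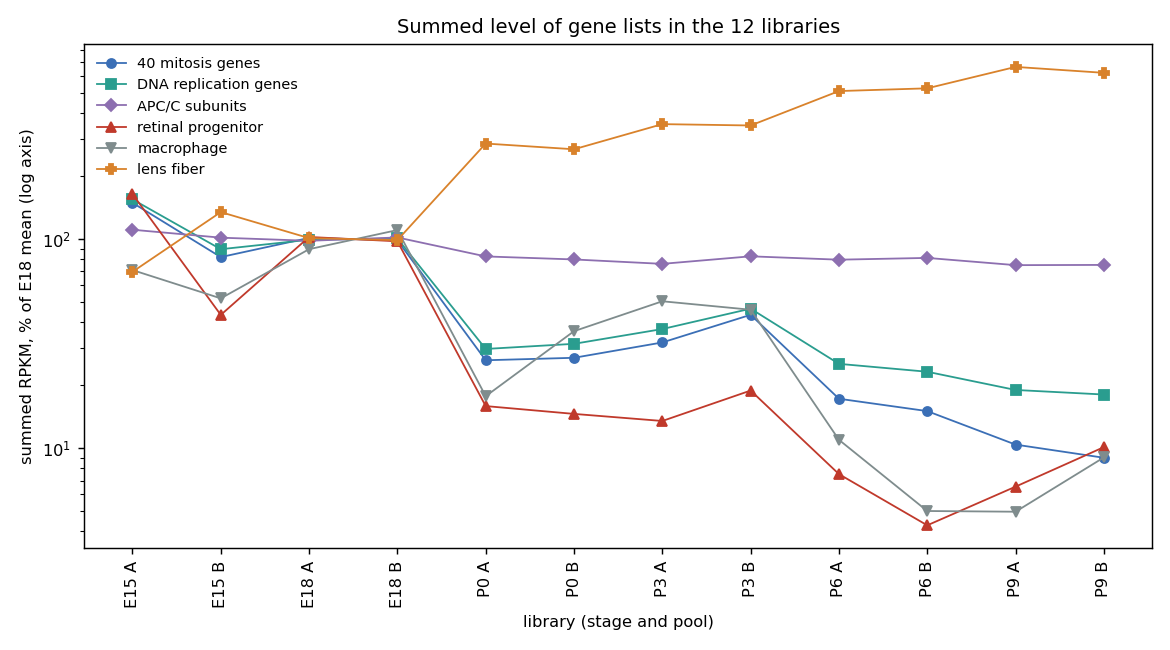
Summed RPKM of 6 gene lists in each of the 12 libraries, as a percentage of the E18 mean of the same list (log axis); lines join libraries in order of stage and pool. The 40 mitosis genes stand at 149% in E15 A and 8.99% in P9 B, and the DNA replication genes at 155% and 18.0%. The lens fiber markers reach 624% to 667% at P9, while the APC/C subunits stay between 75.1% and 111%.

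Markers of the cells in and around the lens did not share a single course. Lens fiber markers rose from E18 to P0, 8 of 8, with sums of 5944 and 5816 RPKM at E18, 16850 and 15820 at P0, and 39200 and 36720 at P9. Lens epithelial markers, for the cells that divide, gave 5 higher and 1 lower of 7 at P0, with sums of 1058 and 998 RPKM at E18, 1651 and 1632 at P0, and 1587 and 1567 at P9. At P9 against E18 they also gave 5 higher and 1 lower. Of all tested genes, 7.72% were called higher at P0 and 7.49% at P9. Against E15 these markers gave 2 higher and 2 lower of 7 at P9 (median 0.13). Foxe3, needed to keep these cells from turning into fibers early, stood at 69.2 RPKM at E15, 17.6 at E18 and 35.1 at P9. Its change from E15 to P9 was -0.89 ± 0.27 (adjusted p = 0.0145), and from E18 to P9 it was 0.96 ± 0.27 (adjusted p = 0.00902). Macrophage markers gave 7 of 7 and endothelial markers 6 of 7 lower at P0 than at E18, with sums at E18 of 89.8 and 110.8 RPKM and of 73.6 and 102.5 RPKM, and at P0 of 17.8 and 36.4 RPKM and of 30.9 and 42.2 RPKM. Erythroid markers were lower in 4 of 6, smooth muscle and pericyte markers in 5 of 5, and surface epithelial markers in 2 of 4, while of 6 mesenchymal markers 1 was higher. These counts stand beside the 45.1% of all tested genes called lower in this step. After median-ratio rescaling, where 16.6% were, the macrophage count was 5 of 7, the endothelial 4 of 7, the erythroid 3 of 6, the smooth muscle and pericyte 0 of 5 and the surface epithelial 1 of 4. No marker of these lists was at 0 in all 12 libraries. The part of these cells in the levels of the mitosis genes was not tested.

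Some values are less certain because genes overlap. In the GENCODE M21 annotation 13 of the 40 genes share exon sequence with another gene, among them Ccna2 with Exosc9, Kif20a with Cdc23, Kif4 with Pdzd11 and Cdc20 with Elovl1, all on the opposite strand. In these pairs the partner was present at 35.3, 34.2, 52.8 and 16.3 RPKM at E18. The largest change of the 40, that of Ube2c, has Tnnc2 as its overlapping partner, at 2.26 RPKM at E18 and 0.272 at P9.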

How the data were processed

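Each of the 12 mRNA libraries (TruSeq RNA v2) had 1 table with a value per gene. The unit is not named in the labels. The deposited values were read as RPKM. Low values of a gene were whole multiples of 1 step, within 0.1 read, in 68.3% to 72.2% of the 739 to 858 values tested per library. A step not fitted to the values would give 20%. The step used was fitted to values of the same genes, so 20% is not a matched baseline. Depth was estimated from that step. Bowtie 0.12.8, SAMtools 0.1.18 and the builds GRCm38 and mm10 were named per the submitters' processing notes, with no role stated for any of them. 1 marker list is not reported here. The small-RNA libraries were not analysed here, nor was a test on read counts run.

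The 14405 genes with at least 1 RPKM in at least 2 libraries were tested as log2(RPKM + 1) with limma 3.58.1 in R 4.3.3, with an intensity trend, stage as a factor over 12 libraries and 6 residual degrees of freedom. p-values were adjusted by the Benjamini-Hochberg method over all genes tested, two-sided, with a call at 0.05, and the procedure was tested on simulated data. Pools are separate animals, so p-values measure the spread between pools. The E15 pools widen the shared spread. Alternatives were median-ratio rescaling, quantile normalization, a pseudocount of 0.1, no filter, Rax as a covariate, a replicate block, no trend, and leaving out libraries. Python 3.11.15 with pandas 2.3.3 and matplotlib 3.10.9 handled tables and plots. By rule, full statistics were given for the 3 largest and the 3 smallest changes from E18 to P0 and to P9 on the log2(RPKM + 1) scale. The rule also covered the 2 called genes of each other list with the largest change to P9. Statistics of further genes and steps, such as Cdk1 at P0 and Birc5 from P3 to P6, were given outside this rule. The members, lists and rules were chosen with earlier results of these data known.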

Additional observations from a re-analysis of the deposited data

How the results depend on the processing

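The counts for P0 against E18, P9 against E18 and P9 against E15 stayed at 40 of 40 under every alternative but Rax as a covariate, which gave 0, 37 and 40. For E18 against E15 the count lower was 0, with 3 under the Rax covariate and 0 to 6 when single libraries were left out. For P6 against P3 it was 5, with 8 after median-ratio rescaling, 3 after quantile normalization, 9 with a pseudocount of 0.1, 1 without a filter, 3 without the intensity trend, 40 without the E15 libraries, 0 with the Rax covariate, and 0 to 40 when single libraries were left out. The same count was 1 with the pool letter as a replicate block. The letters did not pair the pools: the correlation of pool differences passed 0.1 in 2 of 15 pairs of stages (range -0.247 to 0.206). The block changed no other count by over 1.5 times. For P9 against P6 the count was 0, with 1 without the E15 libraries, 1 with the Rax covariate, and 0 to 1 when single libraries were left out. For P9 against P0 it was 29, and 2 to 39 when single libraries were left out. Where leaving out a library left a stage with 1 pool, that pool was taken to vary like the others. Among the fold changes from E18 to P0 and to P9 named by rule, 232 kept direction and call, 8 lost the call and none reversed. Fold changes given outside that rule were not part of this tally. One of them, that of Prc1 from P0 to P9 (0.04), was negative without P0 B and without P9 A. The cause of these differences was not tested. At P9 depth limits the lowest genes, and genes near 0.5 RPKM carry large counting error.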
